A study of Mus musculus with 8 samples.

Results

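The Hippo pathway core genes described here are the 10 genes Wwc1, Fat4, Nf2, Stk3, Sav1, Lats1, Lats2, Yap1, Wwtr1 and Tead1. They were chosen by name for their place in the pathway, and they are 10 of the 22200 genes in the deposited table. All 10 were found by their symbols and all 10 passed the filter on low values. Expression was measured in immortalized mouse embryonic fibroblasts (MEFs) of the C57BL/6 background labelled TAF4-/-, TAF4 being a component of TFIID, the factor that recognises core promoters. There were 3 groups of cultures. The 3 untreated libraries are labelled 12 h, 3 libraries come from cultures treated for 12 h with retinoic acid (RA), and 2 from cultures treated for 72 h. The controls and the treated cells carry the same genotype label, and no library labelled as TAF4-expressing was analysed here. Per the study's methods, the TAF4-null line came from Taf4 lox/- embryonic fibroblasts by expression of Cre recombinase, and RA was the all-trans form. Untreated cells at 72 h were not analysed here, so RA and time in culture cannot be told apart at 72 h. The labels do not say whether replicates came from separate cultures, so the p-values measure the spread between these libraries, which may be technical.

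Hippo signalling restrains growth in dense cultures and organs through a kinase cascade. The kinases MST1 and MST2 (genes Stk4 and Stk3), with the scaffold Salvador (Sav1), activate the kinases LATS1 and LATS2, which phosphorylate the coactivators YAP (Yap1) and TAZ (Wwtr1) so that these are held in the cytoplasm or degraded. Unphosphorylated YAP and TAZ enter the nucleus and act through the TEAD transcription factors. Kibra (Wwc1) and Merlin (Nf2) lie upstream, and Fat, the Drosophila relative of the giant protocadherin FAT4, does so in flies, whereas such a role of FAT4 in mammals is disputed. Much of this control is through phosphorylation and location of the proteins, which messenger RNA levels do not show.

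The values are the authors' normalised read numbers per gene, brought to one distribution in all 8 libraries, so the sequencing depth of each library is unknown and no counting error can be given. The RA response was present in every treated library: Cyp26b1, which encodes an RA-degrading enzyme, stood at 40.4 to 73.0 in the untreated libraries and at 3252 to 6306 in the 5 treated ones. Col6a3, a collagen VI chain gene, stood at 1218 to 1439 untreated, 541 to 656 at 12 h and 97.3 to 104 at 72 h. The label of the cells as TAF4-null could not be checked, since Taf4a read between 984 and 1449 in all libraries, the row is not limited to the deleted part of the gene, and there was no library labelled as TAF4-expressing to set beside it. Its paralog Taf4b lay between 49.5 and 99.0. Of 11 fibroblast markers 10 had a mean of at least 10, while Thy1 was at 1 to 3.5, the bottom of the scale. The markers summed to 239600 to 260300 per library untreated, 240200 to 251000 at 12 h and 218800 to 224600 at 72 h, where the libraries lay below all others. Such a sum is weighted to the genes of highest value. Col3a1 read 19989 to 22110 untreated and 7665 and 8071 at 72 h. Col1a2 read 25760 to 28274 untreated and 20412 and 18923 at 72 h, while Vim and Fn1 overlapped between these groups. Of the 10 tested 4 fell and 2 rose at 72 h against untreated, beside 11.5% of all genes called. The 2 that rose were Pdgfra (201 to 216 untreated, 430 and 385 at 72 h) and Pdgfrb (740 to 914 untreated, 1082.5 and 1204 at 72 h). The 6 epithelial, 5 endothelial, 6 immune and 4 muscle markers summed to at most 93.6 per library for any list. The libraries were split into 2 sides by sign on the first axis of within-group deviations, which held 50.1% of the within-group variance. Side 1 was made up of replicates 1 and 2 of the untreated group, replicate 3 at 12 h and replicate 2 at 72 h, and side 2 of the rest. Deviations sum to 0 in a group, so each group has both sides by construction. Untreated replicate 1 (0.12) and RA 12 h replicate 2 (-0.13) lay nearest 0 on the axis. Changes within each side are therefore given for the members that passed the test. A side holds only 1 or 2 libraries of a group and is drawn from these same values, so these changes carry no test and are not separate support.

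The question put to these genes was whether their expression moved with RA. None of the 10 changed 2-fold at either time. Fat4 fell at 12 h, Lats2 and Stk3 rose at 72 h, and Yap1, Sav1, Nf2 and Tead1 differed between group means by 0.12 or less on the log2 scale in each comparison. For Tead1 this holds for the row of that name. A second row annotated as Tead1, described below, rose at 72 h and is not counted among the members. A gene was called changed at an adjusted p below 0.05 in limma on log2(value + 1), adjusted by Benjamini-Hochberg over the 12673 genes with a mean value of at least 10. By this rule 1 of the 10 members changed at 12 h against untreated, where 4.37% of all genes tested did (2.87% higher and 1.5% lower, with 1.42% also changed at least 2-fold). At 72 h against untreated, 2 of 10 members changed, beside 11.5% of all genes (6.08% higher, 5.41% lower, and 3.67% at least 2-fold). At 72 h against 12 h of RA, 1 of 10 changed, beside 5.84% of all genes (2.92% higher, 2.92% lower, and 1.5% at least 2-fold). With so few members, counts of 1 and 2 do not set the pathway apart from these shares. The median of the members' absolute log2 changes was 0.09 at 12 h, 0.20 at 72 h and 0.20 between the times, beside 0.17, 0.22 and 0.19 over all genes tested. In all 30 combinations of member and comparison, the 95% interval of the log2 change lay inside 2-fold in both directions.

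**Figure D1:**
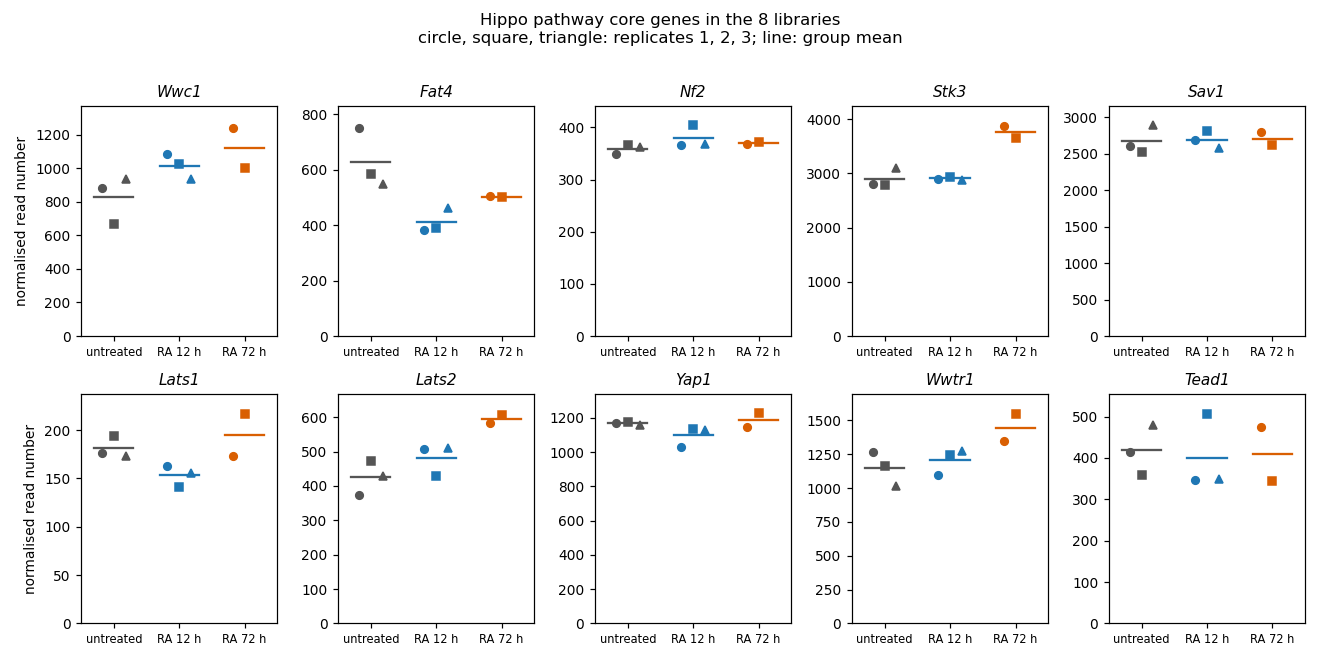
Normalised read number (vertical axis, linear from 0) of each of the 10 core genes in the 3 untreated, 3 RA 12 h and 2 RA 72 h libraries, with points for libraries and lines for group means. Fat4 is lower in all 3 RA 12 h libraries than in any untreated library, Stk3 and Lats2 are highest in the 2 libraries at 72 h, and Sav1, Nf2 and Yap1 lie nearly level.

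**Figure D2:**
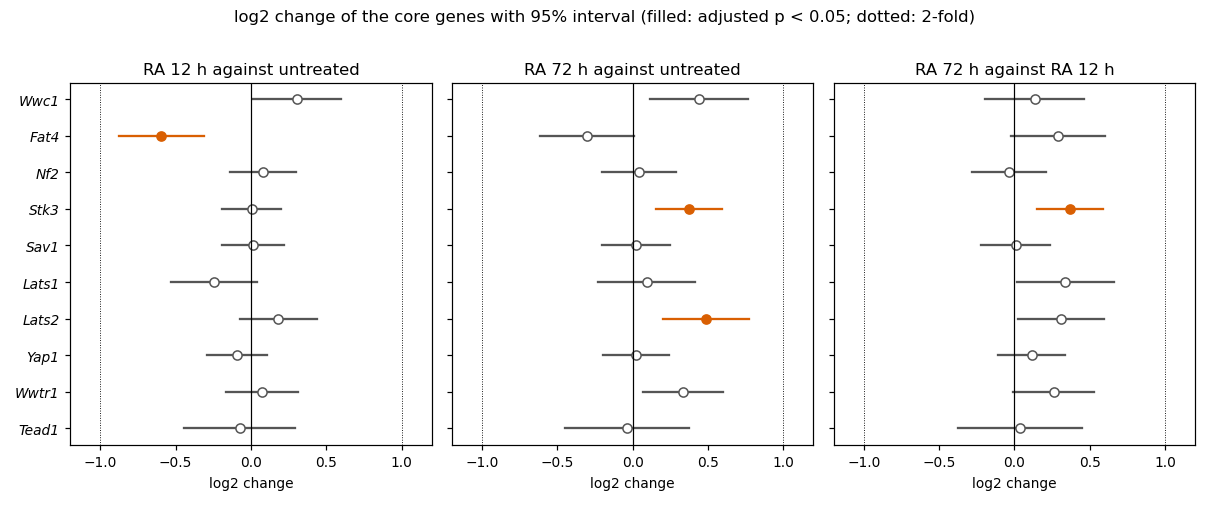
Log2 change of each core gene (horizontal axis) in the 3 comparisons, with its 95% interval from limma. Filled points passed at an adjusted p below 0.05, and all 30 intervals lie between the dotted lines at 2-fold.

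Fat4 was grouped with the upstream genes for its Drosophila relative Fat, an atypical cadherin that feeds into the fly pathway from the cell surface. Fat4 (ENSMUSG00000046743, mm9 chromosome 3, 38785862 to 38910907, plus strand) read 748, 585 and 547 in the untreated libraries, 383, 391 and 462 after 12 h of RA, and 504 and 502 after 72 h. Every RA 12 h library was below every untreated library, and the libraries at 72 h lay between the groups without overlapping either. At 12 h Fat4 fell by 0.59 ± 0.13 (SE) on the log2 scale, to 0.66 times the untreated level (adjusted p = 0.0174, limma, 3 libraries against 3). The change was -0.52 within side 1 and -0.50 within side 2. In bulk cultures fewer cells expressing a gene and less RNA per cell cannot be told apart, for Fat4 as for all genes here. At 72 h the difference from untreated was -0.30 (95% interval -0.62 to 0.01, adjusted p = 0.223), and the difference between the times was 0.29 (-0.02 to 0.60, adjusted p = 0.306), so neither the persistence nor the recovery of the early fall was resolved. The call at 12 h was lost without untreated replicate 1 (-0.46, adjusted p = 0.0937), without RA 12 h replicate 1 (-0.54, adjusted p = 0.0990), without RA 12 h replicate 2 (-0.56, adjusted p = 0.109) and without the variance trend (adjusted p = 0.0838), with the direction kept in each.

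Kibra, the product of Wwc1, binds and activates the LATS kinases. Wwc1 (ENSMUSG00000018849, chromosome 11, 35651902 to 35794029, minus strand) read 880, 667 and 938 without RA, 1085, 1026 and 937 at 12 h, and 1238 and 999 at 72 h. Both libraries at 72 h were above all untreated ones, but untreated replicate 2 stood far below the other two and RA 12 h replicate 3 fell within the untreated range. The log2 difference was 0.31 ± 0.13 at 12 h (95% interval 0.01 to 0.60, adjusted p = 0.278) and 0.44 ± 0.15 at 72 h (0.11 to 0.77, adjusted p = 0.0849), and neither passed. It passed at 72 h when the side was a term of the fit (0.40, adjusted p = 0.00975) and without untreated replicate 3 (0.54, adjusted p = 0.0200). The sides were drawn from the within-group deviations of these same values, so the lower p with that term is not separate support. Merlin, encoded by Nf2 (ENSMUSG00000009073, chromosome 11, 4665848 to 4749539, minus strand), is a tumour suppressor that recruits LATS to the membrane. Nf2 was among the steadiest members, with values from 350.0 to 405 in the 8 libraries and log2 differences of 0.08 (-0.14 to 0.30) at 12 h and 0.04 (-0.20 to 0.29) at 72 h, neither of which passed (adjusted p = 0.747 and 0.871).

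Among the core kinases, Stk3 encodes MST2, which phosphorylates LATS and MOB1. Stk3 (ENSMUSG00000022329, chromosome 15, 34805251 to 35085561, minus strand) read 2810, 2781 and 3105 in untreated cells, 2900, 2941 and 2878 at 12 h, and 3866 and 3645 at 72 h. Its values at 12 h fell inside the untreated range, and both values at 72 h lay above all 6 others. Stk3 rose at 72 h by 0.37 ± 0.10 against untreated (1.30-fold, adjusted p = 0.0282) and by 0.37 ± 0.10 against 12 h (adjusted p = 0.0498), whereas at 12 h its difference from untreated was 0.01 (-0.19 to 0.20, adjusted p = 0.982). Within sides the difference between 72 h and untreated was 0.38 and 0.32. The 72 h libraries are also those with the lower fibroblast marker sum given above, in which Col3a1 and Col1a2 were lower while Pdgfra and Pdgfrb were higher. The part of these marker changes in the changes of Stk3 and Lats2 was not tested. With the replicate number as a term of the limma fit, the call of Stk3 at 72 h against untreated was lost (0.40, adjusted p = 0.0731). The rise at 72 h against untreated lost its call without filter (adjusted p = 0.0550), without variance trend (0.0815), in a fit of these 2 groups alone (0.0889), and without untreated replicate 1 (0.0910), untreated replicate 2 (0.0629), RA 12 h replicate 2 (0.0579), RA 72 h replicate 1 (0.233) or RA 72 h replicate 2 (0.0974), at log2 values of 0.33 to 0.42. The rise against 12 h kept its call only without untreated replicate 2 or 3 among the 8 fits that left out a library, at log2 values of 0.33 to 0.41 over all 8 and an adjusted p of up to 0.287.

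Salvador, the scaffold that joins MST and LATS, is encoded by Sav1 (ENSMUSG00000021067, chromosome 12, 71065999 to 71087989, minus strand). Sav1 read 2599, 2520 and 2896, then 2682, 2817 and 2573, then 2794 and 2619, and its 3 group means lay within 0.02 of each other on the log2 scale. The intervals allowed at most 0.22 in either direction at 12 h (-0.19 to 0.22) and 0.25 at 72 h (-0.21 to 0.25). A predicted gene on the opposite strand, listed as AC166827.2-202, overlaps Sav1 and read 7.88 to 32.8, beside at least 2520 for Sav1.

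The LATS kinases are the step that phosphorylates YAP and TAZ. Lats2 (ENSMUSG00000021959, chromosome 14, 58260914 to 58377225, minus strand) read 373, 474 and 429 without RA, 507, 429 and 510 at 12 h, and 583 and 607 at 72 h. The groups at 12 h and untreated overlapped, and both libraries at 72 h were above all others. Lats2 rose at 72 h by 0.49 ± 0.13, or 1.40-fold (adjusted p = 0.0286). Within the sides the rise was 0.53 and 0.44. At 12 h the difference was 0.18 (-0.07 to 0.44, adjusted p = 0.480), and from 12 to 72 h it was 0.31 (0.02 to 0.59, adjusted p = 0.225). The call at 72 h was lost without untreated replicate 1 (0.40, adjusted p = 0.111), RA 72 h replicate 1 (0.52, adjusted p = 0.132) or RA 72 h replicate 2 (0.46, adjusted p = 0.158), without the variance trend (adjusted p = 0.0806) and in a fit of these 2 groups alone (adjusted p = 0.0617). With the replicate number as a term of the limma fit, this call was lost too (0.52, adjusted p = 0.0690). Xpo4, a nuclear export receptor gene that overlaps Lats2 on the same strand, differed by -0.04 at 72 h (-0.36 to 0.28), so the overlapping row did not rise with Lats2. Lats1 (ENSMUSG00000040021, chromosome 10, 7401007 to 7436256, plus strand) had the lowest values of the members: 177, 194 and 174 untreated, 163, 141 and 156 at 12 h, and 173 and 216 at 72 h. All 3 libraries at 12 h were below all others, yet the differences of -0.24 from untreated (-0.53 to 0.04, adjusted p = 0.392) and 0.34 between the times (0.02 to 0.66, adjusted p = 0.238) did not pass.

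YAP and TAZ are the paired effectors of the cascade. Yap1 (ENSMUSG00000053110, chromosome 9, 7931999 to 8004596, minus strand) read 1171, 1179 and 1161 untreated, 1028, 1137 and 1132 at 12 h, and 1148 and 1231 at 72 h. The untreated libraries lay close together, and the RA 12 h libraries were all below them. The log2 difference was -0.09 at 12 h (-0.29 to 0.10, adjusted p = 0.656) and 0.02 at 72 h (-0.20 to 0.24, adjusted p = 0.926). Wwtr1 (ENSMUSG00000027803, chromosome 3, 57259571 to 57379832, minus strand) read 1264, 1164 and 1016, then 1100, 1244 and 1273, then 1346 and 1544. Both libraries at 72 h were above the 6 others, at a difference of 0.33 ± 0.12 from untreated (0.07 to 0.60) that did not pass (adjusted p = 0.111). The difference passed with the side as a term (0.37, adjusted p = 0.00640), a term drawn from these same values and so not separate support. At 12 h the difference was 0.07 (-0.17 to 0.31, adjusted p = 0.781).

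TEAD1 is one of 4 DNA-binding partners of YAP and TAZ. Tead1 (ENSMUSG00000055320, chromosome 7, 119822832 to 120050319, plus strand) varied more between libraries of a group than between groups, at 414, 360 and 481 untreated, 346, 506 and 350 at 12 h, and 475 and 344 at 72 h. The high libraries, which were untreated replicate 3, RA 12 h replicate 2 and the first replicate at 72 h, were all on side 2, although the remaining library of that side, RA 12 h replicate 1, was low. The log2 differences were -0.08 at 12 h (-0.44 to 0.29, adjusted p = 0.865) and -0.04 at 72 h (-0.45 to 0.37, adjusted p = 0.934), the widest intervals among the members. A further row of the table, listed as 2610024B07Rik (chromosome 7, 120046474 to 120050321), covers the last 3846 bases of Tead1 on the same strand and carries the name Tead1 in the annotation used here. It read 652, 657 and 577 untreated, 671, 653 and 795 at 12 h, and 756 and 1010 at 72 h, above the Tead1 row in every library. Its difference at 72 h was 0.48 (0.17 to 0.78, adjusted p = 0.0452), a call kept in 2 of the 8 fits that left out a library, with 0.27 without RA 72 h replicate 2. Reads of the 3′ end of Tead1 and of this locus cannot be told apart, so the Tead1 row may hold only part of the gene's signal.

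Compared per length, as reads per kilobase of the longest coding transcript in untreated cells, the members fell into tiers. Sav1 (1058) and Stk3 (995) were highest and overlapped between libraries. Yap1 (281), Wwtr1 (244) and Wwc1 (183) followed without overlap, then Lats2 (81.9) and Nf2 (76.2), which overlapped, then Tead1 (42.0) and Fat4 (38.9), which also overlapped, and last Lats1 (25.2). The Tead1 level uses the Tead1 row alone and leaves out the higher 2610024B07Rik row at its end, so the place of Tead1 is not settled. After 72 h of RA, Stk3 (1289) stood above Sav1 (1073) without overlap, and Wwtr1 (308) and Yap1 (285) overlapped. These levels assume reads spread along the transcript, as the study's methods describe. The labels describe short tags beside DpnII sites instead, for which a level per length would not hold, while ratios and changes of one gene between libraries do not use the length.

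Ratios of paralogs compare genes within a library. The log2 ratio of Lats1 to Lats2 read numbers was -1.07, -1.28 and -1.30 untreated, -1.63, -1.60 and -1.70 at 12 h, and -1.75 and -1.49 at 72 h. Every RA-treated library was below every untreated library, so that Lats1 made up less of the pair, by -0.43 at 12 h and -0.40 at 72 h. The log2 ratio of Yap1 to Wwtr1 was -0.11, 0.02 and 0.19 untreated, -0.10, -0.13 and -0.17 at 12 h, and -0.23 and -0.33 at 72 h, with the libraries at 72 h below all others. The ratio of Stk3 to its paralog Stk4, which encodes MST1, was 3.90, 3.81 and 4.19 untreated, 3.74, 3.98 and 3.70 at 12 h, and 4.72 and 4.48 at 72 h, where Stk4 itself read 187, 197 and 169, then 216, 185 and 221, then 145 and 163. This ratio at 72 h exceeded untreated by 0.63 and 12 h by 0.79. In exact two-sided permutation tests over the libraries of the 2 groups, the smallest p these group sizes allow is 0.1. It was reached for Lats1/Lats2 at 12 h and at 72 h against untreated, for Yap1/Wwtr1 between the times and for Stk3/Stk4 at 72 h against both other groups, each with an adjusted p of 0.18 over the 9 tests made, so no ratio could pass.

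**Figure D3:**
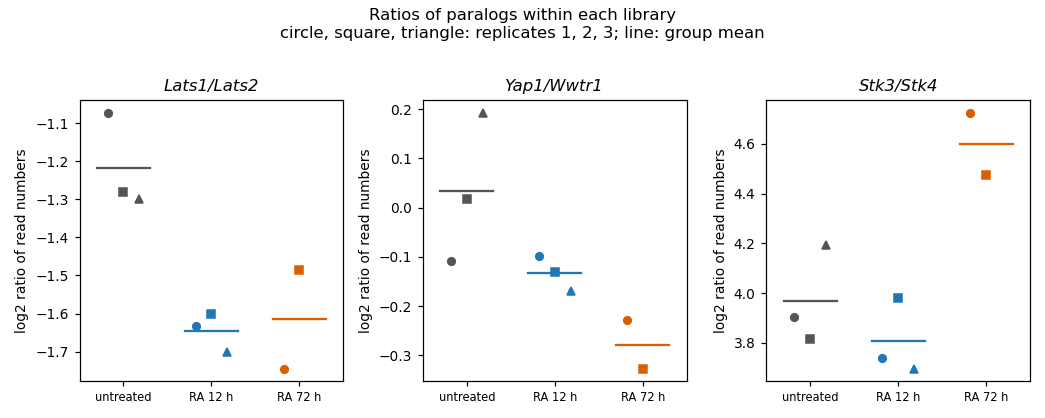
Log2 ratio of normalised read numbers (vertical axis) for Lats1/Lats2, Yap1/Wwtr1 and Stk3/Stk4 in each library, with group means as lines. The Lats1/Lats2 ratio is -1.30 or higher in the untreated libraries and -1.49 or lower in the treated ones, and Stk3/Stk4 is highest at 72 h (4.48 and 4.72).

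The sequence upstream of the start site was taken from RefSeq (GRCm38.p6) for 8 of the 10 members, as 250 bases before each of 11 start sites, with none for Stk3 and Tead1. Each window was searched on both strands for GGAATG, the core of the TEAD motif, and AGGTCA, a half-site bound by RA receptors. Other spellings of these sites were not searched. The matches found do not overlap each other. GGAATG was found upstream of 3 of the 8 members with a window, Yap1, Wwtr1 and Sav1. In the whole set it was in 12.6% of the 32851 windows of this length, a share of windows and not of genes. AGGTCA was found upstream of Wwtr1 alone, before 1 of its 2 start sites, and in 14% of all windows. The windows of Fat4 and Lats2, the changed members for which one was held, contained neither. They are shown with those of Yap1 and Wwtr1, the coactivators with a match, in lower case with the matches in capitals. The GGAATG match begins 141 bases before the start of Yap1 and 170 bases before the Wwtr1 start shown, where AGGTCA begins 9 bases before it. Before the other Wwtr1 start GGAATG begins at 136 bases, and that window holds no AGGTCA. The windows are chr3:38886690-38886939 on the plus strand for Fat4, chr14:57746124-57746373 on the minus strand for Lats2 (a GC-rich one of 2 start sites, 74.0% G and C), chr9:8004597-8004846 on the minus strand for Yap1 and chr3:57575877-57576126 on the minus strand for Wwtr1 (one of 2 start sites).
Fat4: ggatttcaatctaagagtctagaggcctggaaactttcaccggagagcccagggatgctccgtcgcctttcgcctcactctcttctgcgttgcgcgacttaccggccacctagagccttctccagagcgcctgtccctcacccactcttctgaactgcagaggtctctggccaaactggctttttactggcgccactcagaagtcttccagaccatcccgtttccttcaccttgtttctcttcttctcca
Lats2: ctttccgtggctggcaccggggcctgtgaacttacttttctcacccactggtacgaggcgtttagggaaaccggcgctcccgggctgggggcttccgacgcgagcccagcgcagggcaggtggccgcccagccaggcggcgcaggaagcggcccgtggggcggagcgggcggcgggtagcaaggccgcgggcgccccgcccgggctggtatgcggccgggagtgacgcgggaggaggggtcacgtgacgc
Yap1: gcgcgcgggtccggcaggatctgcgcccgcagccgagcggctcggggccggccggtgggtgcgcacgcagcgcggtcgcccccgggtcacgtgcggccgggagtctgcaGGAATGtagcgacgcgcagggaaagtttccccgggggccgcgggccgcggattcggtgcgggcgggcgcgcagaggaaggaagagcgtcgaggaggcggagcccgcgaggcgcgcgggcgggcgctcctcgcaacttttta
Wwtr1: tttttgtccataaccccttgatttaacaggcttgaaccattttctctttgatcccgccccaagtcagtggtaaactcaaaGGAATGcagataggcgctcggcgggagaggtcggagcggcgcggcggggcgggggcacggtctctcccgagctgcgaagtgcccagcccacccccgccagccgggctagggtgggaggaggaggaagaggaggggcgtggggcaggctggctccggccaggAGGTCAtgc

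The genes most like a member over the 8 libraries were taken for the 3 members whose group means spread most, by Pearson's r of log2(value + 1) against all other genes tested. Fat4, with a spread of 0.59, was followed most closely by Hip1 (r = 0.977), 1110038D17Rik (0.974), 2410002I01Rik (0.968), Pfas (0.966) and Cd248 (0.963). For Lats2, with a spread of 0.49, the closest were Galm (0.973), Hrsp12 (0.951), Gabrb2 (0.951), Gsk3a (0.938) and Cul4a (0.938). Wwc1, with a spread of 0.44, had Pola1 (0.983), Ryr1 (0.978), Astn2 (0.975), Epha6 (0.972) and Pard3b (0.969). The 5 genes like Wwc1 span 122 to 1024 kb of the genome, against a median of 28.1 kb over 12503 genes with a span, and Wwc1 itself spans 142 kb. Background reads along gene bodies, estimated from genes of at least 100 kb, ran from 84.5 to 155 per Mb and were higher on side 2 (147, 146, 146 and 155) than on side 1 (103, 84.5, 110 and 119). By group they were 103, 84.5 and 147 untreated, 146, 146 and 110 at 12 h, and 155 and 119 at 72 h. By this estimate they made up 1.74% to 1.89% of the Wwc1 value as a group mean and 5.98% to 7.76% of that of Tead1, the highest share. After subtraction of the estimate the change of Wwc1 at 72 h was 0.44. The 5 genes like Wwc1 had untreated means of 895, 23.1, 85.7, 61.9 and 175, in the order given. At the untreated background per Mb above, the reads of Astn2 (1024 kb) and Epha6 (952 kb) could be wholly background. Those of Pard3b (1003 kb) and Ryr1 (122 kb) could be background in large part, as could those of Gabrb2 (213 kb, untreated mean 31.7), listed for Lats2. Exact shares for these genes were not calculated. The part of background in the course of Wwc1 was not tested. These correlations describe 8 libraries that share groups and sides, and carry no test.

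Around the core, 78 of 82 further pathway genes on a list of partners were in the table (Frmd1, Dchs2, Crb3 and Vgll3 were not found) and 72 passed the filter. At 12 h 2 rose, 1 fell and 69 did not pass, with a median log2 change of 0.00 beside -0.02 over all genes. At 72 h against untreated 6 rose, 4 fell and 62 did not pass, with a median of -0.02 beside -0.02. Between the times 3 rose, 2 fell and 67 did not pass, with a median of -0.04 beside 0.00. Per comparison, 3, 10 and 5 of 72 genes were called, beside the 4.37%, 11.5% and 5.84% of all genes given above. The losses named below are mostly those from leaving out a library, and other fits ended calls too. Of all calls of these genes and the target genes below, few were kept in all 16 alternative fits. They were Amotl1 at 12 h and 72 h and Rassf1 in both comparisons of 72 h. Against untreated they were also Rassf2, Rassf6 and Tgfb2 at 72 h and Ctgf at 12 h.

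The largest early change was in Amotl1, which encodes a junction-associated angiomotin that binds YAP. Amotl1 read 1103, 1067 and 1227 untreated, 2227, 2270 and 2217 at 12 h, and 2417 and 2260 at 72 h. Treated libraries did not overlap untreated ones, and the levels at 12 h and 72 h lay together. Amotl1 rose by 0.98 ± 0.09 at 12 h (adjusted p = 1.79e-05) and by 1.05 ± 0.10 at 72 h (adjusted p = 2.12e-05), in each of the 16 alternative fits of both comparisons. Its paralogs Amot (1782 to 2263) and Amotl2 (3337 to 4200) did not pass, at differences of -0.14 and -0.05 at 12 h and -0.13 and -0.12 at 72 h.

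Rassf1, Rassf2 and Rassf6, of the RASSF family, whose proteins bind MST kinases, moved at 72 h in both directions. Rassf1 read 462, 551 and 499 untreated, 561, 515 and 515 at 12 h, and 919 and 922 at 72 h, and rose by 0.87 ± 0.11 against untreated (adjusted p = 0.000223) and 0.80 ± 0.11 against 12 h (adjusted p = 0.00109). Rassf2 climbed at both times, from 68.0, 81.6 and 69.6 to 114, 122 and 105 at 12 h (0.63, adjusted p = 0.0224) and to 153 and 159 at 72 h (1.09, adjusted p = 0.000585). Its early call was lost without untreated replicate 1 (0.58, adjusted p = 0.110), RA 12 h replicate 1 (0.63, adjusted p = 0.0941) or RA 12 h replicate 2 (0.58, adjusted p = 0.137). Rassf6 was low throughout, at 71.0, 48.5 and 58.0 untreated, 49.3, 34.1 and 38.8 at 12 h, and 11 and 16.8 at 72 h, and fell by 2.03 ± 0.27 at 72 h (adjusted p = 0.000259). The estimated gene-body background made up 7.13% of its value untreated and 39.7% at 72 h, and after subtraction the change was -2.61. Rassf6 was also called lower at 72 h than at 12 h (-1.50), in 15 of 16 alternative fits. The 72 h changes of these 3 genes against untreated held in all 16 alternative fits. Rassf3 rose between 12 and 72 h (0.45 ± 0.10, adjusted p = 0.0369), a call kept in 2 of the 8 fits that left out a library at log2 values of 0.43 to 0.49, being lost without untreated replicate 1, any RA 12 h library or either RA 72 h library.

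Among kinases parallel to MST, Map4k3, which encodes a kinase that can act on LATS, fell at both times: from 756, 742 and 665 to 360.1, 464 and 534 at 12 h (-0.69 ± 0.14, adjusted p = 0.0138) and 428 and 542 at 72 h (-0.58 ± 0.16, adjusted p = 0.0335). Leaving out untreated replicate 1, RA 12 h replicate 1 or RA 12 h replicate 2 ended the call at 12 h, at -0.65, -0.53 and -0.71. At 72 h it was ended by leaving out untreated replicate 1 (-0.55), untreated replicate 2 (-0.56), RA 12 h replicate 2 (-0.58) or RA 72 h replicate 1 (-0.41). Its relative Map4k4 rose at 72 h (0.52 ± 0.12, adjusted p = 0.0141), and not without RA 72 h replicate 2 (0.39). This call was also lost without the variance trend (adjusted p = 0.0524) and with the replicate number as a term (adjusted p = 0.0602). The MST and LATS cofactors Mob1a (1504 to 1925) and Mob1b (809 to 1004) and the kinase gene Stk4 did not pass in any comparison.

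Of the other TEAD genes, Tead3 read 629, 568 and 665 untreated, 630.0, 658 and 630.4 at 12 h, and 835 and 862 at 72 h, and rose by 0.45 ± 0.11 at 72 h against untreated (adjusted p = 0.0159) and by 0.41 ± 0.11 against 12 h (adjusted p = 0.0464). The first of these calls was lost without RA 72 h replicate 1 (0.47) or replicate 2 (0.43). It was also lost in a fit of these 2 groups alone (adjusted p = 0.0546) and with the replicate number as a term (adjusted p = 0.0507). The second was kept only without untreated replicate 2 or 3, at log2 values of 0.39 to 0.43 over the 8 fits. Tead2 (291 to 456) and Tead4 (64.1 to 110) did not pass, at 0.36 and -0.56 at 72 h (adjusted p = 0.123 and 0.0733). Vgll4, a TEAD cofactor that competes with YAP, was low (24.1 to 44.8) and did not pass.

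At the junctions and in the cytoplasm, Ctnna1 (alpha-catenin) fell between 12 and 72 h (-0.49 ± 0.11, adjusted p = 0.0199), a call lost without RA 12 h replicate 1 (-0.43), RA 72 h replicate 1 (-0.47) or RA 72 h replicate 2 (-0.51). Fjx1, the relative of the Drosophila kinase Four-jointed that modifies Fat, rose at 72 h from 43.0, 42.1 and 39.6 to 63.9 and 74.9 (0.72 ± 0.20, adjusted p = 0.0297), and this call was lost without untreated replicate 1 (0.74), untreated replicate 2 (0.73), RA 72 h replicate 1 (0.83) or RA 72 h replicate 2 (0.61). The 14-3-3 proteins hold phosphorylated YAP in the cytoplasm. Of 7 such genes tested, 2 fell at 72 h and 5 were not called, beside 11.5% of all genes called and 5.41% lower. Sfn fell (-0.78 ± 0.21, adjusted p = 0.0260), but not without untreated replicate 1 (-0.63) or RA 72 h replicate 1 (-0.61). Ywhab fell (-0.35 ± 0.10, adjusted p = 0.0459), a call lost whichever of the 8 libraries was left out, at -0.37 to -0.33. None of the 16 inhibitors of the kinases, Ajuba among them, and none of the 4 genes for degradation of YAP and TAZ passed in any comparison, with 2, 1 and 2 inhibitors and no degradation gene below an unadjusted p of 0.05 in limma at 12 h, at 72 h and between the times. Frmd6, Wwc2 and Ptpn14, upstream proteins at 1738 to 2527, 2445 to 2842 and 469 to 648 reads, did not pass either.

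**Figure D4:**
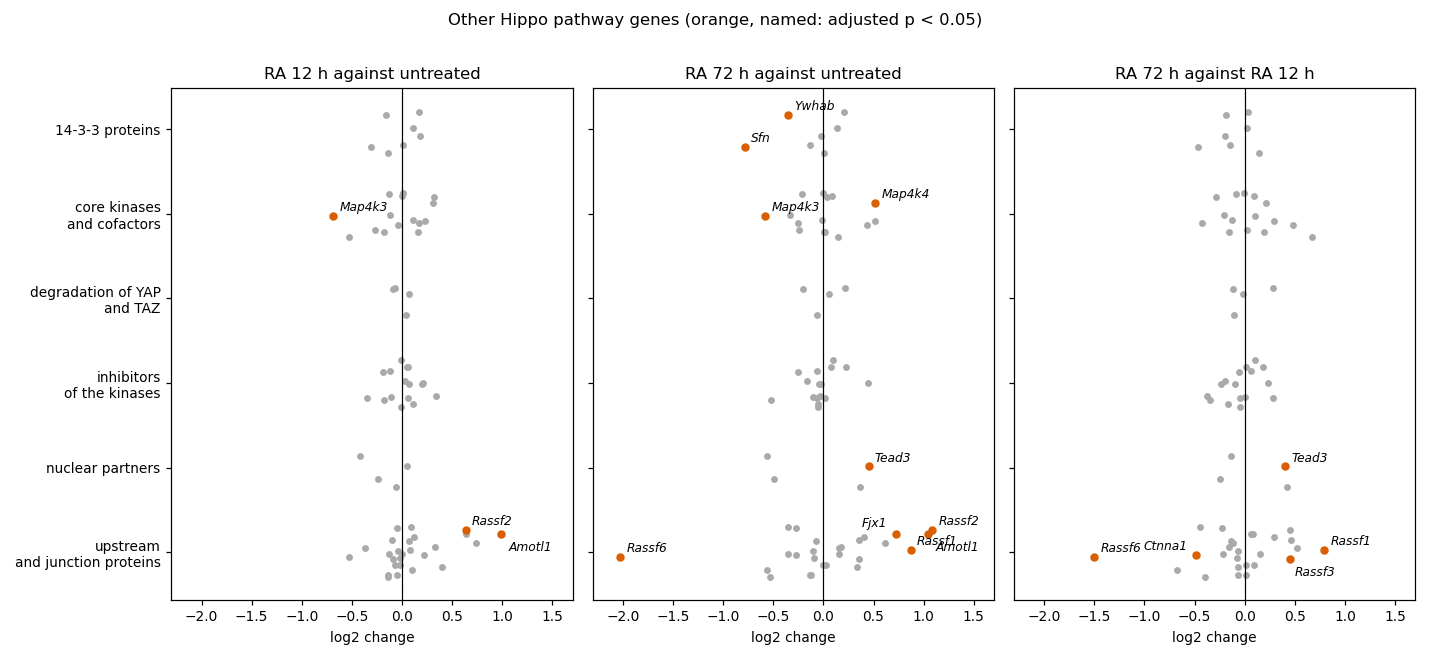
Log2 change (horizontal axis) of the 72 other pathway genes tested, arranged by role with vertical scatter for legibility, in the 3 comparisons. Orange named points passed at an adjusted p below 0.05, with Amotl1 at 0.98 and 1.05 against untreated and Rassf6 at -2.03 at 72 h.

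Of 6 target genes of YAP and TEAD, 3 rose and none fell at 12 h, 1 rose and none fell at 72 h against untreated, and 1 rose and 1 fell between the times, beside the 4.37%, 11.5% and 5.84% of all genes called. They did not follow 1 course. Ctgf, a matricellular target, read 9583, 10902 and 8556 untreated, 16146, 13366 and 18129 at 12 h, and 12193 in both libraries at 72 h. It rose at 12 h (0.71 ± 0.13, adjusted p = 0.00532), and at 72 h its difference of 0.34 (0.03 to 0.65) did not pass (adjusted p = 0.171). Cyr61 rose at 12 h (0.45 ± 0.11, adjusted p = 0.0336) and fell from 12 to 72 h (-0.59 ± 0.12, adjusted p = 0.0126), the early call being lost without untreated replicate 1 (0.41), RA 12 h replicate 1 (0.35), RA 12 h replicate 2 (0.47) or either RA 72 h library, and the later one without RA 12 h replicate 1 (-0.49), RA 72 h replicate 1 (-0.55) or RA 72 h replicate 2 (-0.63). The early call was also lost without the filter (adjusted p = 0.0984), without the variance trend (adjusted p = 0.116) and in a fit of these 2 groups alone (adjusted p = 0.0504). Crim1 rose at 12 h (0.40 ± 0.10, adjusted p = 0.0469), a call kept only without untreated replicate 3 among the 8 fits that left out a library, at 0.34 to 0.45. Tgfb2, which encodes a TGF-beta ligand, read 107, 93.1 and 84.9 untreated, 108, 126 and 97.8 at 12 h, and 191 and 216 at 72 h. It was not called at 12 h (0.22, adjusted p = 0.510) and rose at 72 h by 1.10 ± 0.17 against untreated (adjusted p = 0.000813, called in all 16 alternative fits) and by 0.88 ± 0.17 against 12 h (adjusted p = 0.00764), the latter not without RA 72 h replicate 2 (0.79, adjusted p = 0.108). Axl, a receptor kinase gene, read lower in all 3 RA 12 h libraries (10646 to 12851) than untreated (13471 to 16747), at a difference of -0.35 that did not pass (adjusted p = 0.156), and was at 15085 and 17270 at 72 h. Ankrd1, low at 11.3 to 19.9, did not pass.

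**Figure D5:**
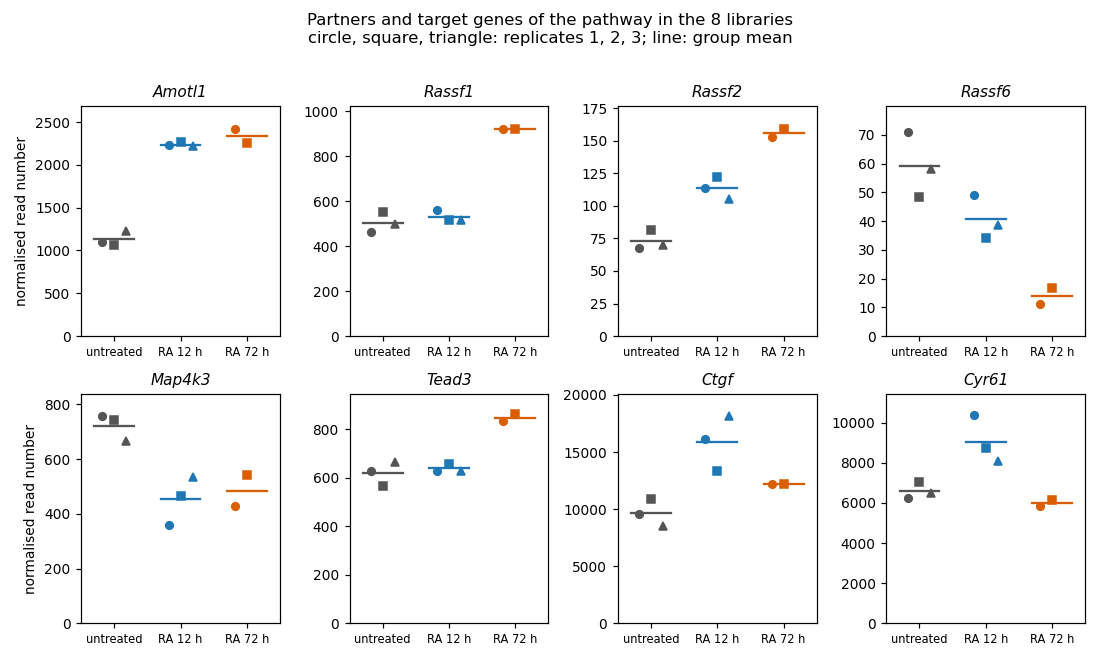
Normalised read number (vertical axis, linear from 0) of 6 pathway partners and 2 YAP target genes in each library, with group means as lines. Amotl1 is at 2217 or above in all 5 treated libraries and at 1227 or below untreated, Rassf1, Rassf2 and Tead3 are highest and Rassf6 lowest at 72 h, and Ctgf and Cyr61 are highest at 12 h.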

How the data were processed

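The deposited table holds 1 value per Ensembl gene and library for 22200 genes (1 line without a gene was left out). By the study's methods, the authors mapped reads to mm9 with Tophat, quantified genes with Cufflinks on Ensembl annotations, turned FPKM into read numbers and normalised them with DESeq. The labels describe DpnII tag libraries and give mm9. In the file itself, the 8 columns hold the same sorted values (sum 9442018.6, median 20.75, lowest 1), as quantile normalisation leaves them, so these deposited values are not raw counts, were tested on a log scale, and leave the depth unknown.

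Each library was assigned to its group by the treatment and time labels. Their genotype labels say TAF4-/-, while their titles carry cl1, which resembles the study's name for its TAF4-expressing line, and the labels were followed. The methods give a shorter late time than the 72 h of the labels, which were followed there too. A linear model of the 3 groups was fitted with limma 3.58.1 (R 4.3.3) to log2(value + 1) of the 12673 genes with a mean of at least 10, with a variance trend. Contrasts were two-sided, adjusted by Benjamini-Hochberg over all genes, and a fold change is on this log scale, which understates changes of low genes. The shares of member calls were read beside those of all genes. The fit was tested on simulated data.

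The members and lists were chosen with earlier results of these data known. Named were all members, up to 6 passing partners per comparison by absolute change, a fixed set of kinases, angiomotins, TEADs and adaptors, Ctgf, Cyr61, Ankrd1, Taf4a, Taf4b, Cyp26b1, Col6a3 and the 5 genes most like each of 3 members. Map4k4, Ywhab, Crim1, Tgfb2, Axl, Col3a1, Col1a2, Vim, Fn1, Pdgfra and Pdgfrb were named after their values were seen. Coordinates are mm9, from GENCODE vM1 (Ensembl 65), in which 96.7% of identifiers were found. Upstream sequences are RefSeq on GRCm38.p6. Sides are the signs of the first axis of within-group deviations. Gene-body background is the percentile 25 of (value - 1) per Mb in genes of at least 100 kb. Ratios were tested by exact permutation (Python 3.11.15). Alternatives were a pseudocount of 10, no filter or a mean of at least 20, no variance trend, only the 2 groups compared, the replicate number or the side as a term, background subtracted, the study's rule of p at most 0.05 with 2-fold, and each library left out.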

Additional observations from a re-analysis of the deposited data

How the results depend on the processing

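The number of members called varied with the fit. At 12 h it was 1, and 0 without the variance trend or by the study's rule (unadjusted p at most 0.05 with a 2-fold change), and 0 to 1 when 1 library was left out. At 72 h against untreated it was 2, with 1 without the filter, 0 without the variance trend, 0 with only the 2 groups compared, 0 by the study's rule, 4 with the side as a term (Lats2, Stk3, Wwc1 and Wwtr1), and 0 to 3 with 1 library left out. Between the times it was 1, with 0 without the filter, without the variance trend or by the study's rule, and 0 to 1 with 1 library left out. The calls of Fat4, Lats2 and Stk3 kept their directions in every alternative, and the report names the libraries that end them. Fewer libraries remain when 1 is left out, and the cause of the other losses was not tested. The sides were drawn from the deviations of these same values, so calls gained with the side as a term are not separate support. Of the 72 other pathway genes, 3, 10 and 5 were called in the 3 comparisons, with 6 at 72 h without the filter, and 1 to 4, 5 to 16 and 1 to 6 with 1 library left out. In alternatives chosen after seeing the data they numbered 7, 16 and 9 with the side as a term, 6 at 72 h with only the 2 groups compared, and 2 between the times without the variance trend, where Rassf3, Ctnna1 and Tead3 lost their calls.

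With a replicate block, the members called numbered 1 at 12 h, 0 at 72 h against untreated (adjusted p = 0.0690 for Lats2 and 0.0731 for Stk3) and 0 between the times, and the other pathway genes called numbered 2 at 12 h (Rassf2 being lost, adjusted p = 0.0527), 4 at 72 h and 2 between the times. The deviations of libraries that share a number had a Pearson's r across genes from -0.47 to 0.42, with only 2 of 7 pairs above 0. Deviations sum to 0 within a group, so the 2 libraries at 72 h mirror each other (r = -1) and these pairs are not independent. This check therefore cannot decide whether the numbers pair the libraries. The labels do not say it either, and the main fit did not pair them.

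Differences near 0 changed sign. With the side as a term Stk3 at 12 h was -0.02 and Sav1 was -0.03 at 12 h and -0.00 at 72 h. With 1 library left out, the 12 h changes ran from -0.02 to 0.06 (Stk3), -0.03 to 0.07 (Sav1), -0.01 to 0.15 (Wwtr1) and -0.25 to 0.03 (Tead1). The 72 h changes against untreated ran from -0.03 to 0.08 (Sav1), -0.07 to 0.25 (Lats1), -0.03 to 0.07 (Yap1) and -0.27 to 0.19 (Tead1). Those between the times ran from -0.02 to 0.29 (Wwc1), -0.06 to 0.01 (Nf2), -0.04 to 0.06 (Sav1), -0.19 to 0.27 (Tead1) and -0.10 to 0.16 (Lats1/Lats2 ratio). With 2 libraries at 72 h and no depth in the file, differences within the intervals given were not resolved.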
